A study of Homo sapiens with 4 samples.

Results

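The integrin and laminin genes were taken as 26 integrin subunit genes (names beginning ITGA or ITGB) and 11 laminin chain genes (LAMA, LAMB or LAMC). They were followed through maps of SOX2 binding. A listed interval was counted at a gene when it overlapped the gene body or the 10 kb on either side, on the GENCODE release 44 annotation lifted to hg19. The 37 genes were picked by name, with earlier results of these data known. They make up 37 of 20090 protein-coding genes of that annotation. Their windows held 165 of the 58827 intervals listed in all.

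Binding was measured by CUT&RUN, in which an antibody tethers a nuclease where the protein of interest sits, and the cut fragments are sequenced. The cells were BJ fibroblasts, an established line from human foreskin. All cells had expressed an introduced protein with a V5 peptide tag for 48 h, and the antibody was against that tag. One group carried V5-tagged full-length SOX2 and the other V5-tagged SOX2-DBD, the DNA-binding domain of SOX2 alone. There were 2 samples per group. Each group was represented by 1 full peak list, attached to replicate 1, and a down-sampled SOX2 list was also used. No value has an error between replicates, and no test between SOX2 and SOX2-DBD was made, with 1 list per group. The labels do not name the vector or the level of the introduced protein. Cells without an introduced protein were not analysed here, and expression was not measured in these data.

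Integrins are receptors of the cell surface, each built from an alpha and a beta subunit, that grip the extracellular matrix outside and connect to the actin cytoskeleton inside. Laminins are secreted trimers of an alpha, a beta and a gamma chain that polymerise into basement membranes, and several integrins are their receptors. Fibroblasts hold to collagen and fibronectin through integrins and secrete some laminin chains. SOX2, a transcription factor of stem cells with an HMG box as its DNA-binding domain, can bind DNA within closed chromatin.

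Intervals of the SOX2 list with no overlap in the SOX2-DBD list are called SOX2-only. Those in both lists are called shared, and those in the SOX2-DBD list alone are called SOX2-DBD-only. Every shared interval has the same position and the same signal values in both lists, and which library gave the values is not stated. The region of maximum signal lay at least in part outside the interval for 16 of the 53 shared intervals at these genes. Sequencing depth is unknown. The total signal of an interval is the authors' value, with no stated scale, and it is used here only to rank intervals within a list.

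The sequences that carry the description below are those at the centre of the strongest intervals of each class. They are given 5′ to 3′ on the forward strand of hg19, for 200 bp at each centre. Capitals mark matches to an AP-1 motif (TGACTCA or TGAGTCA) or to the SOX core motif (ACAAAG or ACAATG), each sought on both strands, so that CATTGT and CTTTGT also count. The first and the third strongest shared intervals at these genes lay at LAMA2 and ITGA2, and each centre held 1 AP-1 match and no SOX core match.
LAMA2, shared, chr6:129352388-129352587: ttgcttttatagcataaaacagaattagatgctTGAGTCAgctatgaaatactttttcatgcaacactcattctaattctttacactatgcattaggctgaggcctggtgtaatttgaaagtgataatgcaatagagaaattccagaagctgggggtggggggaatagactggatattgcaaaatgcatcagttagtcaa
ITGA2, shared, chr5:52319867-52320066: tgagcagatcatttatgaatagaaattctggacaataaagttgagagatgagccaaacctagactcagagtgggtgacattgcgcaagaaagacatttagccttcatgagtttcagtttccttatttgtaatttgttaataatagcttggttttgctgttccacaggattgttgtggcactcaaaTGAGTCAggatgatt
The second strongest, at ITGA1, lay over a coding exon that is untranslated in another transcript, so that only 30 bases are shown. Capitals mark a longer SOX match, AACAATGG on the reverse strand, which holds a core match by construction.
ITGA1, shared, chr5:52189619-52189648: ggctctagtcaCCATTGTTaaaactctggg
The strongest SOX2-only interval lay at ITGA4, and its centre held no match to these motifs. The sequence at the strongest SOX2-only interval of LAMB1 is not shown.
ITGA4, SOX2-only, chr2:182330521-182330720: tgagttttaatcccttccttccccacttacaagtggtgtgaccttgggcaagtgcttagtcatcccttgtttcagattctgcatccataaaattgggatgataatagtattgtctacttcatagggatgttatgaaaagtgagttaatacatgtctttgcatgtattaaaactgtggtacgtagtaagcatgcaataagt
The SOX2-DBD list had an interval of its own at ITGA6, ITGA8 and LAMA2. The LAMA2 centre held 3 SOX core and 2 AP-1 matches, the second AP-1 match sharing a base with a SOX core match. The ITGA6 centre held 1 SOX core match on the reverse strand, and the ITGA8 centre held none.
ITGA6, SOX2-DBD-only, chr2:173307206-173307405: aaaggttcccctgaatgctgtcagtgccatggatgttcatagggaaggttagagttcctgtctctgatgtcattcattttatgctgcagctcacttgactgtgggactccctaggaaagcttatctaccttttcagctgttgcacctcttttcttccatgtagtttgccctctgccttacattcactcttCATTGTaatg
ITGA8, SOX2-DBD-only, chr10:15743118-15743317: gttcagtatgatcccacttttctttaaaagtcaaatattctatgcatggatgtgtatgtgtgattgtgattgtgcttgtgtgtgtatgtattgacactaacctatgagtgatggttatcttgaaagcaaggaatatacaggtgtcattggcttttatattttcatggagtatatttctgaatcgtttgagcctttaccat
LAMA2, SOX2-DBD-only, chr6:129508278-129508477: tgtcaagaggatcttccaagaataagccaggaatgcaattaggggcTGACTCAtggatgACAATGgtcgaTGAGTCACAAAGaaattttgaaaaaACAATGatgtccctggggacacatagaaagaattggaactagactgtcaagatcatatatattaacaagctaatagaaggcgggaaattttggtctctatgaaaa
LAMC1 held more shared intervals than any other of these genes, and a window from its first intron with 2 AP-1 matches is shown as well. This window was chosen after its values were seen.
LAMC1, shared, chr1:183029667-183029866: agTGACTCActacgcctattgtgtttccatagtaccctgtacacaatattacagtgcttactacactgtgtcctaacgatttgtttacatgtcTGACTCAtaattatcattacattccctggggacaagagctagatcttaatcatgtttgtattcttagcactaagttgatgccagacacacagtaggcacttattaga

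The first comparison asked which integrin and laminin genes carried binding of full-length SOX2. SOX2-list intervals lay at 24 of the 37 genes, or 64.9%, beside 47.8% of all protein-coding genes. They numbered 162, of which 109 were SOX2-only and 53 shared. The laminin genes, led by LAMA2 and LAMC1, held 89 of them over 11 genes, and the integrin genes held 73 over 26 genes. Per 100 kb of window, this was 4.57 intervals at laminin genes (exact Poisson 95% interval 3.67 to 5.63), 2.65 at integrin genes (2.08 to 3.34) and 2.59 at all protein-coding genes (2.57 to 2.62). These intervals cover counting error only, and neighbouring intervals are not independent events. The median gene among the 37 had 2.02 per 100 kb and the median protein-coding gene 0, with median windows of 102 and 47.3 kb.

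**Figure D1:**
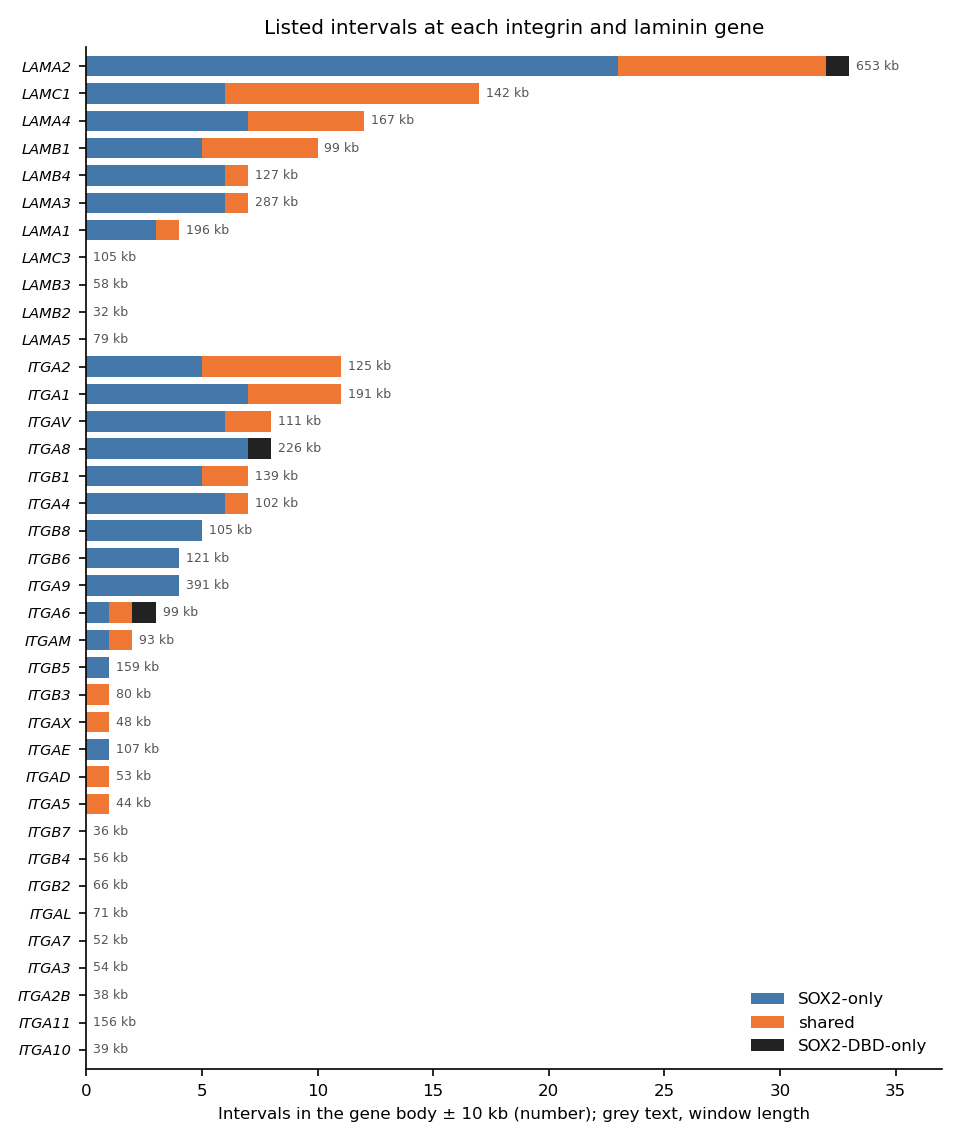
Number of listed intervals (horizontal axis) at each of the 37 genes, stacked as SOX2-only, shared and SOX2-DBD-only, with the window length in grey. LAMA2 has the longest bar at 33 intervals in a 653 kb window, LAMC1 has 17 in 142 kb, and 13 genes have none.

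Among the laminin alpha chains, which carry the sites for cell receptors, 4 of 5 genes had a SOX2-list interval. LAMA2, the alpha chain of muscle and peripheral nerve basement membranes, spans 633 kb (chr6:129204283-129837711). Its window held 23 SOX2-only, 9 shared and 1 SOX2-DBD-only interval, the most of the 37 genes. Its density of 4.90 per 100 kb was reached by 21.0% of protein-coding genes with a window of 50 kb or more. LAMA4, an alpha chain of vessel basement membranes, held 7 SOX2-only and 5 shared intervals, or 7.19 per 100 kb. LAMA3, the alpha chain of epidermal laminin, held 6 SOX2-only and 1 shared interval, and 4 of the 6 lay close together in its eighth intron. LAMA1, an alpha chain of the early embryo, held 3 SOX2-only and 1 shared. LAMA5 had none.

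The densest binding lay at LAMC1 and LAMB1, a gamma and a beta chain gene. LAMC1, the gamma chain found in most laminins, had 6 SOX2-only and 11 shared intervals in a window of 142 kb (gene at chr1:182992555-183114727). At 12.0 per 100 kb it was the densest of the 37 genes, and 0.579% of protein-coding genes with a window of 50 kb or more were as dense. Only 68 protein-coding genes held as many shared intervals, LAMC1 included. LAMB1, the beta chain of widely expressed laminins, followed with 5 SOX2-only and 5 shared intervals, or 10.1 per 100 kb, a density reached by 1.74% of such genes. Of these, 1 shared and 1 SOX2-only interval lay downstream of LAMB1 and within DLD, a mitochondrial enzyme gene. LAMB4, the neighbour of LAMB1 on chromosome 7, held 6 SOX2-only intervals and 1 shared interval, or 5.52 per 100 kb. LAMB2, LAMB3 and LAMC3 had none.

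Of the collagen-binding alpha subunits, ITGA1 and ITGA2 were bound and ITGA10 and ITGA11 had no interval. ITGA1 and ITGA2 lie side by side on chromosome 5, at chr5:52083750-52255039 and chr5:52285170-52390609. ITGA1 held 7 SOX2-only and 4 shared intervals, or 5.75 per 100 kb. ITGA2 held 5 SOX2-only and 6 shared, or 8.77 per 100 kb, the third highest density of the 37 genes. Of these 11, 7 lay within its canonical transcript, 4 of them shared. The others lay upstream or downstream, and the downstream interval, SOX2-only, was centred within MOCS2. The windows of ITGA1 and ITGA2 did not overlap, so no interval was counted at both. ITGA11, a collagen receptor of fibroblasts, had 0 intervals in a 156 kb window, a count that allows up to 1.93 per 100 kb.

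The alpha subunits that recognise the RGD peptide of fibronectin and vitronectin held fewer shared intervals. ITGAV, which pairs with several beta subunits, had 6 SOX2-only and 2 shared intervals, or 7.21 per 100 kb. ITGA8 had 7 SOX2-only intervals, 1 SOX2-DBD-only and none shared, or 3.10 SOX2-list intervals per 100 kb. ITGA5, the main fibronectin receptor subunit, had a single interval, which was shared, and ITGA2B, the platelet subunit, had none. ITGA4, whose product binds fibronectin and VCAM1, had 6 SOX2-only and 1 shared interval, or 6.88 per 100 kb. ITGA9, its relative, had 4 SOX2-only intervals in a 391 kb window, or 1.02 per 100 kb.

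Among the laminin-binding alpha subunits, ITGA6 alone was bound. It had 1 interval of each class, or 2.02 SOX2-list intervals per 100 kb. ITGA3 and ITGA7 had none. Of the beta subunits outside the leukocyte group, ITGB1, the partner of most alpha subunits, had 5 SOX2-only and 2 shared intervals. The annotated ITGB1 gene is 119 kb long and its canonical transcript 57.9 kb, and 3 of the 7 intervals lay within that transcript. ITGB8 had 5 SOX2-only intervals, ITGB6 had 4 and ITGB5 had 1, with none shared, while ITGB3 had 1 shared interval downstream. ITGB4, the beta subunit of hemidesmosomes, had none.

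The leukocyte subunits had the lowest density of the groups, 0.863 per 100 kb (0.235 to 2.21). That of the laminin-binding alpha subunits was close, 0.973 (0.118 to 3.52), and the intervals of counting error overlap. ITGAM held 1 SOX2-only and 1 shared interval, and ITGAE 1 SOX2-only. ITGAD and ITGAX, which are neighbours, were counted with the same shared interval, since their windows overlapped by 9665 bp. ITGAL, ITGB2 and ITGB7 had none.

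The 13 genes without any interval were ITGA10, ITGA11, ITGA3, ITGA7, ITGA2B, ITGAL, ITGB2, ITGB7, ITGB4, LAMA5, LAMB2, LAMB3 and LAMC3. With windows of 50 kb on either side, 33 of the 37 genes had a SOX2-list interval and 4 had none, beside 69.7% of all protein-coding genes with one. A count of 0 allows up to 3 intervals, which for these windows is from 1.93 per 100 kb at ITGA11 to 9.37 at LAMB2. ITGA11 was the only one of the 13 for which that limit lay under the 2.59 per 100 kb of all protein-coding genes. The unbound genes had shorter windows, with a median of 56.5 kb against 123 kb for the 24 others. They also had windows richer in GC, with a median of 52.4% (range 47.6 to 61.8) against 41.3% (36.0 to 52.6).

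The 2 groups of genes overlapped in GC content and in length, and both properties also went with binding over all genes. All 18 of the 37 genes with a window under 45% GC had a SOX2-list interval. Over all protein-coding genes this held for 72.8% of windows under 40% GC and for 66.5% from 40 to 45%. At 50% GC or more it held for 4 of 14 integrin and laminin genes (ITGA5, ITGAD, ITGAE and ITGAX), or 28.6%, beside 13.1% of all. Within these GC bands the windows of the 37 genes were longer than those of all genes. Medians were 125 and 79.5 kb under 40% GC and 142 and 58.9 kb from 40 to 45%. For 50% or more they were 53.8 and 33.1 kb. By length, 13 of 15 of these genes with windows of 100 to 200 kb were bound (86.7%), beside 82.1% of all, and 5 of 12 from 50 to 100 kb (41.7%), beside 61.4%. The pooled density at these genes and at all was 0.847 and 1.49 per 100 kb in windows under 50 kb, and 1.86 and 2.41 from 50 to 100 kb. It was 4.63 and 3.24 from 100 to 200 kb, and 3.21 and 2.68 in longer windows. The listed density at these genes stood below that of all genes in the shorter windows and above it in the longer ones. No counting error was computed for these bands, and under 50 kb only 2 of 6 of these genes had an interval. The differences by band were not tested. The part of GC content and length in the counts was not tested.

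**Figure D2:**
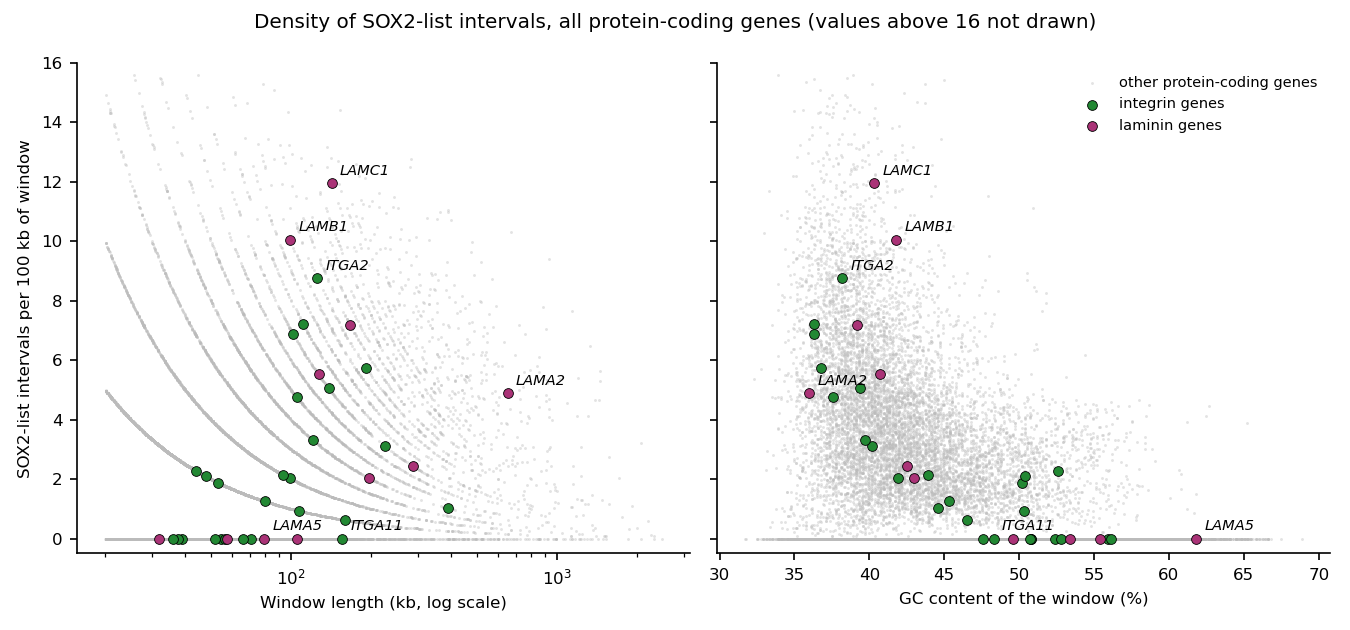
SOX2-list intervals per 100 kb of window (vertical axis) against window length (kb, log scale, left) and GC content (%, right) for all protein-coding genes (grey), integrin genes (green) and laminin genes (purple), with values above 16 not drawn. LAMC1 at 12.0 and LAMB1 at 10.1 are the highest of the 37 genes, and the 13 genes at 0 lie at 47.6% GC or more.

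The second comparison asked how much of this binding the DNA-binding domain alone also gave. Shared intervals lay at 18 of the 37 genes, or 48.6%, beside 23.0% of all protein-coding genes, which are shorter. In windows under 50 kb, 2 of 6 of these genes had a shared interval (33.3%), beside 8.08% of all. From 50 to 100 kb, 5 of 12 had one (41.7%), beside 24.6%. In windows of 100 to 200 kb the shares were 60.0% and 49.5%, and of the 4 genes with longer windows 2 had one, beside 66.6% of all. In the upper 50% of each list by total signal, 7 of the 37 genes (18.9%) had one, beside 13.9% of all. At the 37 genes, 53 of 162 SOX2-list intervals were shared, 32.7% (Wilson 95% interval 26.0 to 40.3), beside 23.4% (22.9 to 23.8) over all protein-coding windows. The portion was 37.1% (27.8 to 47.5) at laminin genes and 27.4% (18.5 to 38.6) at integrin genes, whose intervals of counting error overlap. SOX2-DBD-list intervals numbered 56, or 1.19 per 100 kb, beside 0.637 at all protein-coding genes.

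LAMC1 had the highest portion of those with at least 4 SOX2-list intervals, 11 of 17 or 64.7% (41.3 to 82.7). ITGA2 followed at 6 of 11 (54.5%), LAMB1 at 5 of 10 and LAMA4 at 5 of 12 (41.7%). At the other end stood ITGA8 with 0 of 7, ITGB8 with 0 of 5, and ITGA9 and ITGB6 with 0 of 4 each. The Wilson intervals of neighbours in this order overlap, and that of ITGA8 reaches 35.4%. Several shared intervals of LAMC1 and ITGA2 had their region of maximum signal at least in part outside the interval. Among these were intervals only 23 bp wide at LAMC1 and 51 bp wide at ITGA2. Without LAMC1, the portion over the other 36 genes was 29.0% (22.2 to 36.8), or 42 of 145. In the upper 50% of each list by total signal it was 24.5% (16.9 to 34.0) at these genes and 22.2% at all.

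**Figure D3:**
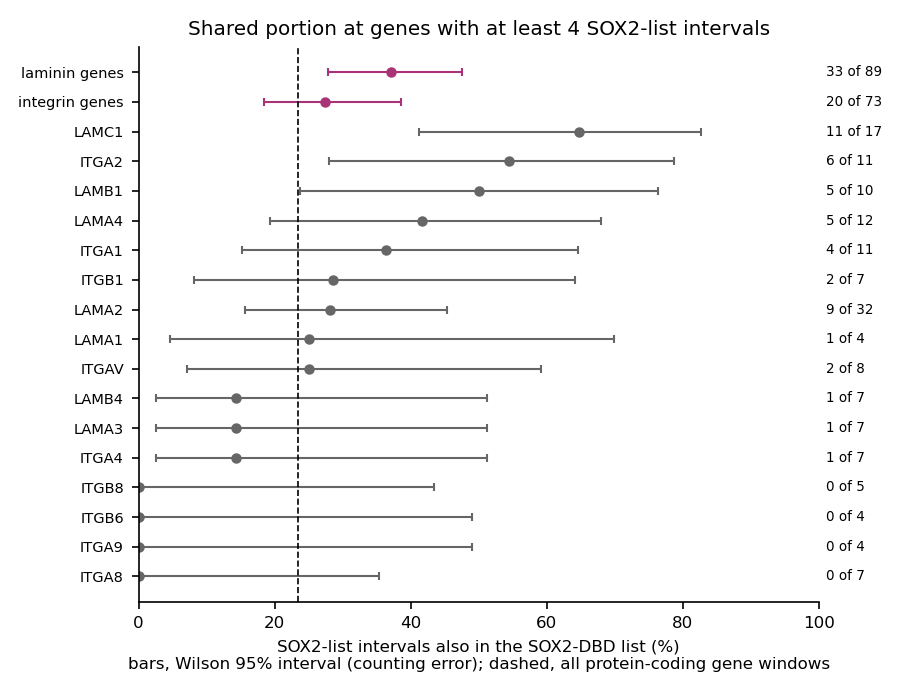
Percentage of SOX2-list intervals also in the SOX2-DBD list (horizontal axis) for laminin genes, integrin genes and each gene with at least 4 such intervals, with Wilson 95% intervals for counting error and a dashed line at the 23.4% of all protein-coding windows. LAMC1, at 64.7%, has the highest portion, and 4 genes lie at 0.

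By role, the collagen-binding subunits had 10 of 22 intervals shared, 45.5% (26.9 to 65.3), all at ITGA1 and ITGA2. The RGD-binding subunits had 3 of 16 (18.8%), ITGA4 and ITGA9 together 1 of 11 (9.09%), and the beta subunits outside the leukocyte group 3 of 18 (16.7%). The laminin alpha chains had 16 of 55 (29.1%) and the beta chains 6 of 17 (35.3%). Each of these Wilson intervals was wide, and that of the beta subunits ran from 5.84 to 39.2%.

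SOX2-DBD-only intervals lay at 3 of the 37 genes, beside 2.49% of all protein-coding genes. With 3 events, this is a count and not a rate. The interval at ITGA6 (chr2:173306765-173307847, first intron) had a total signal of 4291 and rank 3573 of the 15220 SOX2-DBD intervals. That at ITGA8 (chr10:15742802-15743633, second intron) had 3659 and rank 5004, and a SOX2-only interval of the same intron began at position 15744655. The interval at LAMA2 (chr6:129507979-129508776, intron 10) had 2679 and rank 8189. By definition these 3 had no overlap in the full SOX2 list, so it adds little that none overlapped the down-sampled SOX2 list.

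The strongest shared interval was in the first intron of LAMA2 (chr6:129351985-129352991), with a total signal of 10761 and rank 110 of the 57907 SOX2-list intervals. The next was over a coding exon of ITGA1 (chr5:52189024-52190286), with 8142 and rank 564. The third was in the first intron of ITGA2 (chr5:52319719-52320214), with 5559 and rank 3448.

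The strongest SOX2-only interval, in the second intron of ITGA4 (chr2:182329718-182331524), had 7319 and rank 1028. Another of the 3 strongest lay in the fourth intron of LAMB1 (chr7:107634628-107636350), with 6885 and rank 1379. At ITGA4 and LAMB1 the strongest interval was thus SOX2-only, at genes with 1 and 5 shared intervals. At LAMA2, ITGA1 and ITGA2 the strongest was shared. The library behind the totals of shared intervals is not stated, so these comparisons between classes may set unlike values side by side. Median widths were 598 bp for the 109 SOX2-only and 346 bp for the 53 shared intervals, with the narrowest shared interval, at LAMC1, only 23 bp wide. The region of maximum signal lay at least in part outside some shared intervals, the narrowest among them. How the bounds of shared intervals were set is not stated, so the widths of the classes may not be alike in kind.

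Binding near the canonical transcription start was rare at these genes and at all genes. None of the 37 had a SOX2-list interval centred within 1 kb of it, beside 1.57% of all protein-coding genes, a share too small to be told from 0 of 37. Within 5 kb, ITGA2, ITGA8, ITGAV and ITGA4 did, or 10.8%, beside 12.4% of all. At ITGA2, ITGAV and ITGA4 that interval was shared, or 8.11% of the 37 genes beside 3.68% of all. The shared interval of ITGAV (chr2:187455644-187456039) lay 1.1 kb into the gene, that of ITGA4 2.6 kb into it, and that of ITGA2 3.7 kb before it.

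LAMC1, LAMA2 and LAMA4 also have annotated transcripts that start inside the gene. In all, 11 of 162 SOX2-list intervals (6.79%, 3.83 to 11.7) lay within 1 kb of such a start, beside 6.46% over all protein-coding windows. For starts of protein-coding transcripts only, the values were 2.47% and 2.72%. Of the 11 intervals, 6 were shared. At LAMC1 these were 3 neighbouring intervals from chr1:183065397 to position 183066370, between 73.0 and 73.8 kb into the gene. At LAMA4 there was 1, at chr6:112537848-112538208, 38.1 kb into the gene. At LAMA2 there was 1, at chr6:129812175-129812498, 608.1 kb into the gene. The sixth was the ITGAV interval.

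Of the 162 SOX2-list intervals, 133 had their centre in an intron, 3 in a coding exon, 7 in an exon of a non-coding transcript, 5 upstream and 14 downstream. Within canonical transcripts, first introns held 38 of 140 intervals (27.1%, 20.5 to 35.0) and made up 17.9% of the length. Over all protein-coding genes they held 20.7% of intervals in 23.1% of the length. Of the shared intervals, 19 of 47 were in first introns (40.4%, 27.6 to 54.7), beside 23.8% of all. LAMC1 gave 9 of the 19. Its first intron is 79.2 kb long, 64.8% of the transcript, and held 12 of the 16 SOX2-list intervals within the transcript.

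Within that intron, shared intervals of LAMC1 stood in clusters. Those at chr1:183013115-183013405 and chr1:183013613-183013967 carried the same total signal of 3950. Those at chr1:183065397-183065634 and chr1:183065794-183065908 carried the same total of 3809. Counted by distinct signal values, LAMC1 had 9 shared intervals, LAMA2 had 8, and the 37 genes together had 50.

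**Figure D4:**
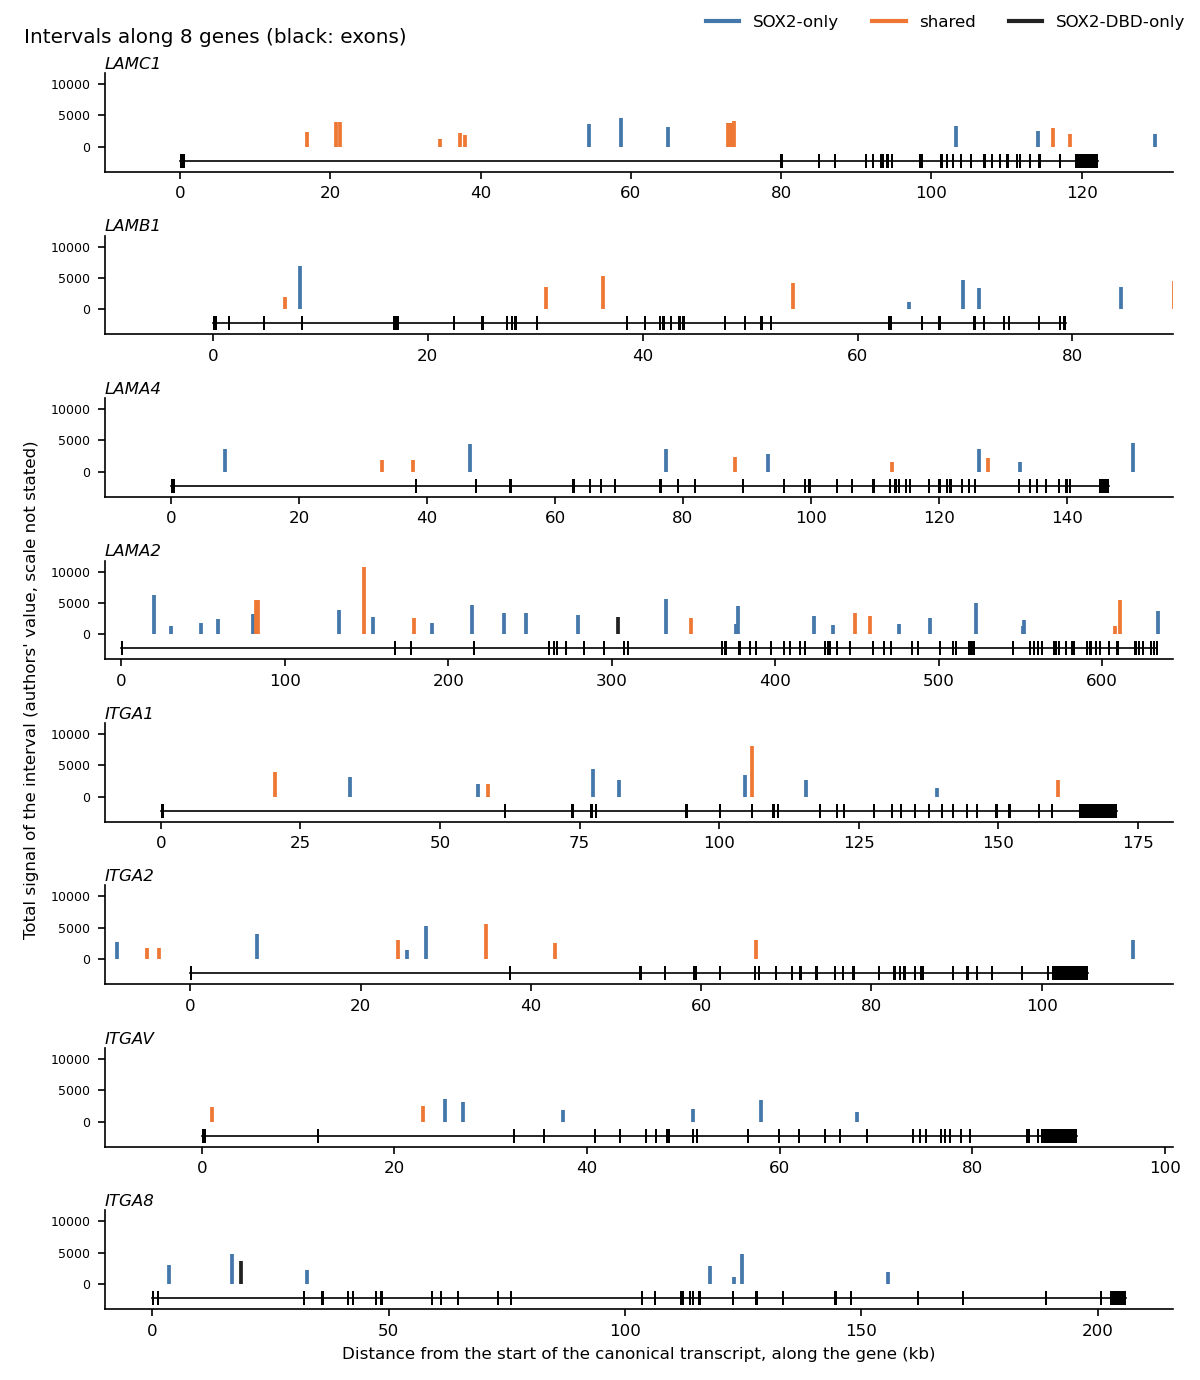
Position of every interval along 8 genes, as distance from the canonical start in kb (horizontal axis), with bar height the total signal in the authors' units and exons in black below. At LAMC1 9 of 11 shared intervals stand in the first intron, and at LAMA2 the tallest, at a total of 10761, is shared.

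The sequences at the centres differed between the classes in the AP-1 motif more than in the SOX motif. AP-1 is the Fos and Jun dimer, a factor of open regulatory regions in fibroblasts. An AP-1 match stood in 7 of 53 shared windows at these genes, 13.2% (6.55 to 24.8), and in 4 of 109 SOX2-only windows, 3.67% (1.44 to 9.06). The Wilson intervals of the 2 classes overlap at this number of windows. Over all intervals of the classes the values were 16.9% and 6.59%. The 7 were spread over ITGA1, ITGA2, ITGAV, LAMA2, LAMA3 and LAMC1, with ITGA2 holding 2, its strongest interval among them.

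A SOX core match stood in 41.4% (34.1 to 49.1) of the 162 windows, beside 47.3% over all SOX2-list windows. It stood in 43.4% (31.0 to 56.7) of shared and 40.4% (31.6 to 49.8) of SOX2-only windows. In windows of the same length 10 kb downstream, the SOX core stood in 25.9% (19.8 to 33.2) and AP-1 in 2.47% (0.964 to 6.18). The centres had less GC, a mean of 33.5% against 39.8% downstream, and base composition alone was not separated from the motif. These matches describe letters, and no match says only that they are not in the window.

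**Figure D5:**
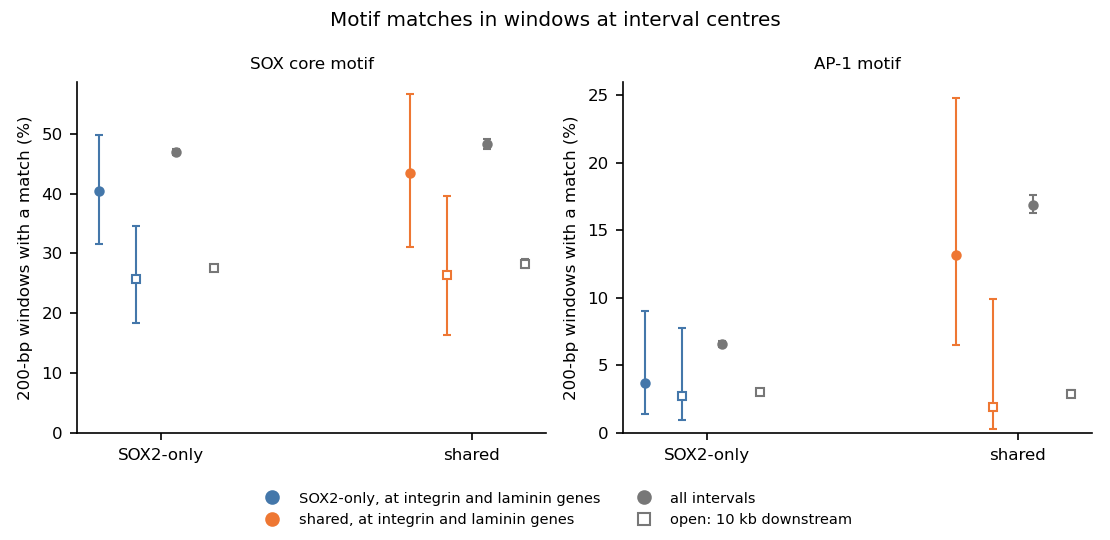
Percentage of 200-bp windows (vertical axes) with a SOX core match (left) or an AP-1 match (right) at centres of SOX2-only (blue) and shared (orange) intervals of the 37 genes and of all intervals (grey), with open squares 10 kb downstream and Wilson 95% bars. AP-1 is at 13.2% in shared and 3.67% in SOX2-only windows of the 37 genes.

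Of the 162 SOX2-list intervals at these genes, 110 (67.9%) overlapped an interval of the down-sampled SOX2 list, beside 64.3% over all protein-coding windows. All 24 bound genes kept at least 1. LAMA2 kept 25 of 32 and ITGA2 8 of 11, whereas LAMC1 kept 9 of 17, ITGB1 3 of 7 and LAMA4 6 of 12. At LAMC1, 6 of the shared intervals were not found, among them the clusters at 20.7 to 21.2 kb and at 73.0 to 73.8 kb.

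Genes that work with these receptors and chains were counted in the same way. The background is that of all protein-coding genes, with 47.8% having a SOX2-list interval, 23.0% a shared one, and 2.59 intervals per 100 kb. Of 18 genes for cytoplasmic adaptors of integrins, 11 had a SOX2-list interval and 8 a shared one, at 2.79 per 100 kb (2.19 to 3.49), a density near that background. Those with the most were PTK2, which encodes focal adhesion kinase, with 16 SOX2-only and 5 shared intervals, VCL (vinculin) with 6 and 8, and TLN2 (talin 2) with 6 and 5. Of 13 genes for other matrix proteins and ligands, 9 had a SOX2-list interval and 6 a shared one, at 2.28 per 100 kb (1.56 to 3.21). Median windows were 95.3 kb for the adaptor genes and 86.9 kb for these 13, beside 47.3 kb for all protein-coding genes. FN1 (fibronectin) had 1 SOX2-only and 6 shared intervals, and NID2 (nidogen 2), a partner of laminin in basement membranes, had 3 and 4. NID1 and SPP1 (osteopontin) had 2 of each. Over the 31 partner genes, 47 of 107 SOX2-list intervals were shared, 43.9% (34.9 to 53.4). The portion was 32.7% (26.0 to 40.3) at the integrin and laminin genes, and the intervals of counting error overlap. Over all protein-coding windows it was 23.4%.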

How the data were processed

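The series has 4 CUT&RUN samples. The peak lists used were 1 full list per group and a down-sampled SOX2 list, all attached to replicate 1. The submitters' processing notes name hg19, Bowtie2 2.3.4.1, SAMtools, bedtools 2.27.1, SEACR 1.3 and deepTools 3.5.0, with no role. Threshold, filters, down-sampling and pooling of replicates are not given in the sources used here. The deposited total and maximum signal per interval are the authors' values, whose normalization is not stated. A seventh column that the authors deposited without a name, on shared intervals only, was not used in the comparisons.

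Exact duplicate rows were counted once, which left 57907 SOX2, 15220 SOX2-DBD and 38291 down-sampled intervals (43607 SOX2-only, 14300 shared, 920 SOX2-DBD-only). Overlap was counted from 1 bp. Densities use the union of gene windows. Motifs were sought in 200-bp windows at interval centres and 10 kb downstream. Shares have Wilson 95% intervals and densities exact Poisson ones. No test was run. Counting was checked on simulated data, where 500 of 500 gene windows and 500 of 500 planted motif windows were right.

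The genes, the lists of partners and the role groups were chosen with earlier results of these data known. Full values are given for the 8 genes with most intervals, the 5 densest with at least 3, and every gene with at least 2 shared or any SOX2-DBD-only interval. One interval that the rule selects is not reported here. Intervals named are the 3 strongest shared and SOX2-only ones, every SOX2-DBD-only one, and shared ones within 1 kb of a start of the gene. Partner genes named are the 3 with most intervals in each list, ties included. Scripts ran under matplotlib 3.10.9, pyfaidx 0.9.0.4, scipy 1.17.1, numpy 2.4.6, samtools 1.23.1 and python 3.11.15.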

Additional observations from a re-analysis of the deposited data

Results flagged for a closer look

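A seventh column of the SOX2 list, which no header or label explains and which no comparison used, held whole numbers on shared intervals. At the integrin and laminin genes it was 1 or more on 13 of 53 shared intervals, 24.5% (Wilson 95% interval 14.9 to 37.6), beside 34.5% of all 14300 shared intervals. The highest value, 5, stood on the coding-exon interval of ITGA1. LAMB1 had 3 intervals at 2, 2 and 3, and no other of the 37 genes had a value above 1.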

How the results depend on the processing

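No paired analysis was possible because only replicate 1 of either group has a list. Of 86 values over the whole gene list recomputed under the alternatives, 73 stayed within the limits set for no change, and of 572 single-gene counts 504 stayed within 1.5 times. Keeping the upper 50% of each list by total signal, which removes intervals by construction, gave 71 SOX2-only and 23 shared intervals, 7 genes with a shared one, densities of 2.0 (SOX2) and 0.532 (SOX2-DBD) per 100 kb and a shared portion of 24.5%. Windows of 50 kb on either side gave 167 SOX2-only intervals, and the down-sampled SOX2 list a density of 2.36 per 100 kb. The portion near a start was 22.8% within 5 kb and 2.47% for protein-coding transcripts only. In 100-bp windows the SOX core stood in 19.1% and AP-1 in 2.47%, and the longer SOX motif stood in 3.09% of 200-bp windows. On gene bodies alone, ITGAD, ITGAX and ITGB3 had no interval. Counting intervals of the same signal once (shared portion 31.4%) and leaving out LAMC1 were added after seeing the data.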
